A study of Mus musculus with 33 samples.

Results

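The 8 striated-muscle myosin heavy chain genes Myh3, Myh8, Myh2, Myh1, Myh4, Myh13, Myh7 and Myh6 were followed through tongue development and compared between mice with biallelic and mice with normal, monoallelic use of Zac1 (Plagl1), an imprinted transcription factor gene. Members were the rows carrying these symbols, 8 of the 27825 genes of each tongue table and 8 of the 25965 genes of the chondrocyte table. Tongues came from biallelic mice, labelled Zac1LOM and described as Zac1o knockout mice that express Zac1 biallelically, and from wild type mice, at E13.5 (embryonic day), on the day of birth (P0) and at P20 (postnatal day). There were 3 biological replicate libraries of each genotype at each stage, 18 in all. Cells sorted as Cd24a+ Cd200+ prehypertrophic costal chondrocytes at E18.5, from 6 biallelic and 5 wild type animals, served as a non-muscle contrast. The labels do not describe the allele further, name no litter or sex, and do not say whether tongues were pooled. The replicates are called biological by the labels.

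Myosin heavy chain is the motor of the sarcomere. It pulls on actin with energy from ATP, and the isoform a fibre carries sets much of its speed of shortening. In mammals a developing limb or body muscle first carries the embryonic chain (Myh3), then the perinatal chain (Myh8), and later replaces them with adult chains: the fast 2A (Myh2), 2X (Myh1) and 2B (Myh4) chains or the slow chain (Myh7). Myh7 is also a ventricular chain of the heart, Myh6 is the other cardiac chain, and Myh13 is the extraocular chain, best known from eye and laryngeal muscles. The mouse tongue is a fast muscle whose adult fibres carry mostly fast chains.

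Of the 8 genes, 6 lie in 1 cluster on chromosome 11, all on the plus strand, in the order Myh3, Myh2, Myh1, Myh4, Myh8, Myh13. On build GRCm38, as the deposited tables give it, Myh3 (ENSMUSG00000020908) spans chr11:67078300-67102291, Myh2 (ENSMUSG00000033196) chr11:67171027-67197517 and Myh1 (ENSMUSG00000056328) chr11:67200052-67224575. Myh4 (ENSMUSG00000057003) follows at chr11:67238029-67260446, Myh8 (ENSMUSG00000055775) at chr11:67277124-67308634 and Myh13 (ENSMUSG00000060180) at chr11:67321658-67371586. Myh6 (ENSMUSG00000040752, chr14:54941921-54966927) and Myh7 (ENSMUSG00000053093, chr14:54970688-54994634) are neighbours on the minus strand of chromosome 14. The order on the chromosome is thus not the developmental order, since the embryonic gene lies at the left end and the perinatal gene to the right of all adult fast genes.

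The genes resemble each other, which limits how surely reads can be assigned. Of the 50-base words in the longest annotated transcript of each gene, 26.9% for Myh2 and 26.7% for Myh1 also occur in another member, 19.7% in each other. The share was 21.4% for Myh8 and 18.9% for Myh4, against 8.45% for Myh13 and 4.81% for Myh3. Myh7 and Myh6 share 22.2% and 22.6% of their words, all with each other. Only 1.15% (Myh3) to 11.4% (Myh6) of 100-base words were shared, but low values of a member beside a very abundant one remain uncertain.

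The promoters of the genes that are switched show what they have in common. The 250 bases before the annotated start were read from RefSeq on build GRCm38.p6 for Myh3 (chr11:67078050-67078299), Myh8 (chr11:67276874-67277123), Myh2 (chr11:67170777-67171026), Myh1 (chr11:67199852-67200101) and Myh4 (chr11:67237562-67237811), all on the plus strand, and stand here 5′ to 3′. Capitals mark the runs of letters that several of them share.
Myh3: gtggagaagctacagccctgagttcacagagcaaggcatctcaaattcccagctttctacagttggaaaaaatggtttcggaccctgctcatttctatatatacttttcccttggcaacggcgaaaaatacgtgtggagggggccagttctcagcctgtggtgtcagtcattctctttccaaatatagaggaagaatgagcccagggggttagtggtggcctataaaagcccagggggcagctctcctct
Myh8: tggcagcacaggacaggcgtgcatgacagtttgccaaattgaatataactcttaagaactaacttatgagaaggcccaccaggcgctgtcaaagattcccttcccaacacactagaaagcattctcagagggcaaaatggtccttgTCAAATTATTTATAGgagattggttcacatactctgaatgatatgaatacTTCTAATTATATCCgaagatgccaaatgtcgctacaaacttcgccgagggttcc
Myh2: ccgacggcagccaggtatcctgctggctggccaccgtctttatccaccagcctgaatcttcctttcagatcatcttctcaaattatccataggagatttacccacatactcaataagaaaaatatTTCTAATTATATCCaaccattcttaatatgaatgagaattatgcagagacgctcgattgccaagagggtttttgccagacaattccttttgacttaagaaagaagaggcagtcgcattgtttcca
Myh1: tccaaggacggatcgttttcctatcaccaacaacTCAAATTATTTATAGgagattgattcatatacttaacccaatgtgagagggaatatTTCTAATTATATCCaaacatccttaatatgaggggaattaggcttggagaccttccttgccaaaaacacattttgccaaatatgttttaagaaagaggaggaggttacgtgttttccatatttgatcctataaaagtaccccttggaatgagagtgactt
Myh4: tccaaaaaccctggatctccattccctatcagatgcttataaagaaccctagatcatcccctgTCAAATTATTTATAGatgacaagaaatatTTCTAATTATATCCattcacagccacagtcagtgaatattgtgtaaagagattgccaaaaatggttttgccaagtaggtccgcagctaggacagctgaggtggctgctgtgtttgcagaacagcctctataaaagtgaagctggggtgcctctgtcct
The run TTCTAATTATATCC occurs in Myh8, Myh2, Myh1 and Myh4, beginning 54, 125, 160 and 158 bases before the start. On either strand it was found in 4 of the 32851 RefSeq windows of 300 bases (250 before to 50 after a start), 0.0122% of all, and those were the windows of these 4 genes. The run TCAAATTATTTATAG precedes it in Myh8, Myh1 and Myh4, with 35, 41 and 14 bases between the runs, and occurs in those 3 windows alone (0.00913%). It contains a match to the MEF2 consensus, which 3.19% of all windows hold. In Myh2 the closest match, TCAAATTATCCATAG, begins 173 bases before the start and carries T10C and T11C, counted from the 5′ end of the run, and its window holds no MEF2 match. Neither run is in the windows of Myh3, Myh13, Myh7 or Myh6. The runs were found by comparing these promoters, and a match of letters is a description, not evidence of a bound factor.

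Values are RPM, reads of a gene scaled to the read total of its library, deposited by the authors on a log2 scale. RPM takes no account of gene length, so levels of different genes are compared here as RPM per kb of the longest transcript or as shares of the 8 genes. The read totals behind the values ranged from 36832717 to 92249098 for tongue libraries and from 2938462 to 15689559 for chondrocyte libraries, so that 3 reads stood for 0.0325 to 0.0814 RPM and 0.191 to 1.02 RPM. Each stage is a table of its own, scaled library by library, so a level set across stages is relative to the total RNA of each tongue. Plagl1 was higher in the biallelic libraries without overlap in all 4 tables: 157 to 275 RPM against 66.1 to 105 RPM at E13.5, 430 to 499 RPM against 221 to 243 RPM at P0, and 50.9 to 77.1 RPM against 23.1 to 30.5 RPM at P20, and in the sorted chondrocytes 17.5 to 49.99 RPM against 3.18 to 15.3 RPM. E13.5 RNA was extracted with another kit than P0 and P20 RNA, per the labels' protocols, so kit and stage cannot be told apart between E13.5 and P0. On the first principal component of their tables, biallelic replicate 3 at E13.5, biallelic replicate 1 and wild type replicate 2 at P0, and biallelic replicate 3 at P20 lay apart from most others.

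The tongue passed through 3 heavy chain programmes. At E13.5 the embryonic chain Myh3 made up 80.6% ± 0.63 of the 8 genes in biallelic and 83.0% ± 3.9 in wild type tongues (SD, n = 3 each; shares of RPM per kb). At P0 the perinatal chain Myh8 made up 85.7% ± 1.19 and 85.3% ± 1.16. At P20 the fast chains Myh1 and Myh4 together held nearly everything: Myh1 51.7% ± 11.5 in biallelic and 44.6% ± 2.0 in wild type tongues, Myh4 45.0% ± 14.7 and 53.7% ± 2.0. The same chain or pair led in all 6 libraries of each stage. Shares are compositions of 1 library and received no test. Per kb, the order at E13.5 was Myh3, Myh8 and Myh7 in each genotype without overlap, at P0 Myh8, Myh3 and Myh4 without overlap, and at P20 Myh1 (403 ± 143 RPM per kb) and Myh4 (336 ± 84.2) with overlapping ranges in biallelic tongues, against Myh4 (408 ± 54.9) and Myh1 (338 ± 32.3) without overlap in wild type tongues. The biallelic order of means rested on replicate 3: Myh1 was 0.836, 0.85 and 2.32 times as high as Myh4 per kb in biallelic replicates 1, 2 and 3, against 0.769, 0.904 and 0.825 times in wild type tongues, so that 2 of the 3 biallelic libraries had the wild type order. Below these the chains lay close: at P0 in wild type tongues the ranges of Myh4, Myh1, Myh2 and Myh13 overlapped from each to the next, and at P20 those of Myh2 and Myh8 did in each genotype.

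**Figure D1:**
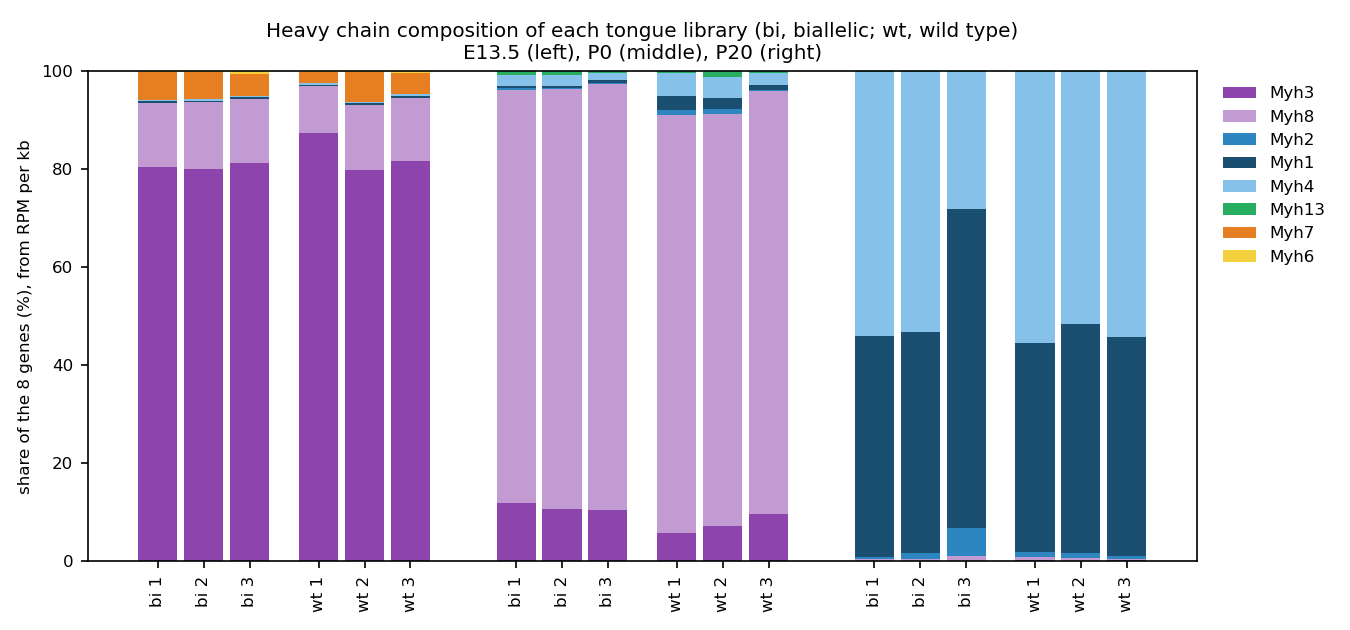
Share of each of the 8 heavy chain genes in every tongue library (percent of summed RPM per kb), biallelic left of wild type within each stage. Myh3 with Myh8 and Myh7 fills the E13.5 bar, Myh8 most of the P0 bar, and Myh1 with Myh4 the P20 bar. In biallelic replicate 3 at P20 Myh1 holds 65.0% and Myh4 28.1%.

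The summed level of the 8 genes was 236 ± 85.9 RPM in biallelic and 268 ± 84.3 RPM in wild type tongues at E13.5, 4360 ± 219 and 4567 ± 459 RPM at P0, and 4637 ± 652 and 4592 ± 527 RPM at P20. It was 18.51 times as high at P0 as at E13.5 in biallelic and 17.05 times in wild type tongues, and 1.063 and 1.006 times as high at P20 as at P0. The 10 skeletal muscle markers (Acta1, Ckm, Ttn and others, none at 0 in any tongue library) summed to 562 to 719 RPM in biallelic and 452 to 789 RPM in wild type tongues at E13.5, to 26766 to 28481 and 26544 to 32638 RPM at P0, and to 20660 to 33652 and 22122 to 30079 RPM at P20. The marker sums were 43.75 and 46.2 times as high at P0 as at E13.5, and 0.98 and 0.928 times as high at P20 as at P0. Both sums were thus far higher at birth than at E13.5, while after birth the identity of the heavy chains changed at a near-constant sum. More muscle cells and more RNA per muscle cell cannot be told apart in whole tongues.

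**Figure D2:**
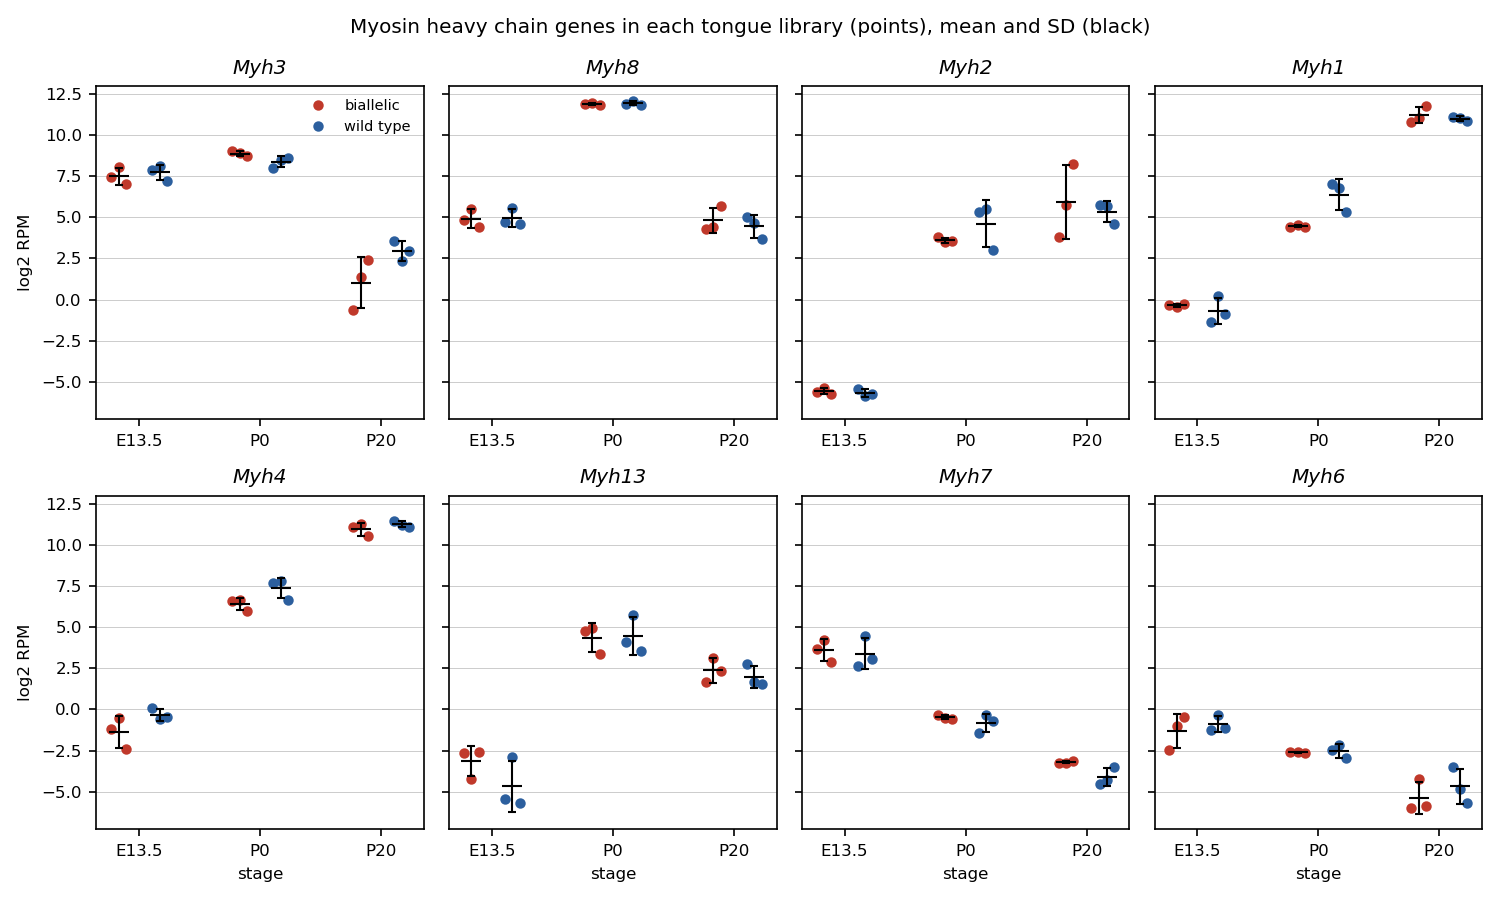
Log2 RPM of each heavy chain gene in every tongue library by stage; points are libraries, biallelic in red left of wild type in blue, black marks are means with SD (n = 3). Myh8 peaks at P0 in all libraries, Myh3 is lowest at P20, Myh1 and Myh4 climb at both steps, and Myh2 lies at the value that stands for 0 reads in all 6 E13.5 libraries.

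The embryonic chain Myh3 was already present at E13.5, at 174, 263 and 130 RPM in biallelic and 231, 281 and 151 RPM in wild type tongues. At P0 it stood at 511, 474 and 427 RPM in biallelic and 255, 360 and 391 RPM in wild type tongues, and at P20 at 0.647, 2.58 and 5.19 RPM and 11.7, 5.18 and 7.78 RPM. All P20 libraries lay below all E13.5 and P0 libraries. From P0 to P20 Myh3 fell by 7.84 on the log2 scale in biallelic (SE 0.52, limma adjusted p = 1.7e-08) and fell by 5.40 in wild type tongues (SE 0.52, limma adjusted p = 1.01e-06). From E13.5 to P0 it rose by 1.37 in biallelic tongues (SE 0.52, limma adjusted p = 0.0241), without overlap of the libraries, whereas the wild type difference of 0.63 (SE 0.52, limma adjusted p = 0.28) did not pass. The biallelic call was lost under quantile normalization (0.83, limma adjusted p = 0.218) and without biallelic replicate 3 at E13.5 (1.13, limma adjusted p = 0.0897), among other settings, and the change did not differ by genotype beyond its error (difference 0.75, SE 0.74).

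Of the 7 members that reached 1 RPM in at least 3 of the 18 tongue libraries, 6 rose and 1 fell from E13.5 to P0 in biallelic tongues, and 5 rose and 1 fell in wild type tongues. Of all 13663 genes tested, 77.2% were called in biallelic (39.7% rose, 37.6% fell) and 77.8% in wild type tongues (37.9% rose, 39.9% fell), so that a call by itself is what most genes show between these stages. From P0 to P20, 3 members rose and 4 fell in biallelic tongues and 2 rose and 4 fell in wild type tongues, against 47.2% of all genes called in biallelic (29.9% rose, 17.3% fell) and 46.6% in wild type tongues (31.7% rose, 14.9% fell). The split of these postnatal calls depends on scaling: with each library centred on its median gene, 2889 rose and 3480 fell in biallelic and 2794 rose and 3165 fell in wild type tongues, in place of 4088 and 2358, and 4332 and 2034. The median gene moved by 0.18 and 0.22 after birth, and the member calls of both steps were the same in number with that centring. A member that passed the low-value filter through the stage where it is high had to differ between stages. Myh6 did not pass the filter.

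The perinatal chain Myh8 had 28.9, 45.7 and 21.1 RPM in biallelic and 26.1, 47.9 and 24.1 RPM in wild type tongues at E13.5. At P0 it reached 3733, 3914 and 3589 RPM in biallelic and 3856, 4264 and 3590 RPM in wild type tongues, the highest mean per kb of any member at any stage (609 ± 26.5 and 635 ± 55.2 RPM per kb). At P20 it was back at 19.8, 21.4 and 51.8 RPM and 32.4, 25.5 and 12.9 RPM. The P0 libraries stood far above both other stages, whose ranges overlapped. Myh8 rose by 6.95 (SE 0.38, limma adjusted p = 9.67e-11) in biallelic and 6.97 (SE 0.38, limma adjusted p = 9.25e-11) in wild type tongues up to birth and fell after it, with log2 changes of -7.06 (SE 0.38, limma adjusted p = 1.63e-09) and -7.47 (SE 0.38, limma adjusted p = 1.01e-09).

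The fast 2X chain Myh1 had 0.785, 0.733 and 0.833 RPM in biallelic and 0.388, 1.14 and 0.550 RPM in wild type tongues at E13.5. At P0 it had 21.5, 23.2 and 21.6 RPM in biallelic and 131, 109 and 39.6 RPM in wild type tongues. At P20 it had 1801, 2117 and 3439 RPM and 2198, 2141 and 1833 RPM. Both steps were rises in each genotype and the stages did not overlap. Up to birth Myh1 rose by 4.82 (SE 0.38, limma adjusted p = 8e-09) in biallelic and 7.05 (SE 0.38, limma adjusted p = 9.77e-11) in wild type tongues. After birth it rose by 6.74 (SE 0.38, limma adjusted p = 3.12e-09) in biallelic and 4.63 (SE 0.38, limma adjusted p = 2.23e-07) in wild type tongues.

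The fast 2B chain Myh4 had 0.439, 0.706 and 0.187 RPM in biallelic and 1.06, 0.668 and 0.719 RPM in wild type tongues at E13.5, from 9 to 41 reads per library. At P0 it had 97.7, 99.3 and 62.6 RPM in biallelic and 205, 220 and 101 RPM in wild type tongues, and at P20 2132, 2463 and 1469 RPM and 2828, 2342 and 2197 RPM. Of the adult chains it was the most abundant at birth, ahead of Myh1 and Myh2 per kb in each genotype, with ranges that overlapped Myh1 in wild type tongues only. It rose by 7.77 (SE 0.39, limma adjusted p = 3.63e-11) in biallelic and 7.70 (SE 0.39, limma adjusted p = 3.74e-11) in wild type tongues up to birth, and by 4.54 (SE 0.39, limma adjusted p = 2.32e-07) and 3.88 (SE 0.39, limma adjusted p = 1.33e-06) after it.

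The fast 2A chain Myh2 had 0 reads in all 6 E13.5 libraries. At P0 it had 13.8, 11.4 and 11.8 RPM in biallelic and 40.6, 46.2 and 7.95 RPM in wild type tongues. Against the level of 3 reads per library, its P0 mean was at least 173-fold higher than at E13.5 in biallelic and at least 478-fold higher in wild type tongues. At P20 it had 13.9, 52.6 and 304 RPM in biallelic and 54.2, 50.5 and 24.6 RPM in wild type tongues. The rise of 2.30 from P0 to P20 in biallelic tongues (SE 0.79, limma adjusted p = 0.025) rested on replicate 3 and was 1.14 without it (adjusted p = 0.155). In wild type tongues the difference of 0.72 (SE 0.79, limma adjusted p = 0.474) did not pass, and without replicate 3 at P0 it was -0.09. At P20 Myh2 thus held 0.348% to 5.75% of the 8 genes in biallelic and 0.598% to 1.10% in wild type tongues, a minor chain beside Myh1 and Myh4. Of the 50-base words of Myh2, 19.7% also occur in Myh1, and the part of stray Myh1 reads in the Myh2 values was not tested.

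The extraocular chain Myh13 had 7, 2 and 8 reads in biallelic and 0, 7 and 0 reads in wild type tongues at E13.5. At P0 it had 27.8, 31.0 and 10.1 RPM in biallelic and 16.8, 53.1 and 11.7 RPM in wild type tongues, and at P20 3.15, 8.87 and 5.00 RPM and 6.76, 3.12 and 2.95 RPM. Like Myh8, its neighbour in the cluster, Myh13 was highest at birth. Of the 50-base words of Myh13, 4.86% also occur in Myh8, the gene with which it shares most. Myh8 was far more abundant at P0, and the part of stray Myh8 reads in the Myh13 values was not tested. The rise of Myh13 up to birth passed the test in each genotype (limma adjusted p = 8.94e-08 in biallelic and 8.3e-09 in wild type tongues), with a size that depends on the few E13.5 reads. After birth it fell by 1.99 in biallelic (SE 0.73, limma adjusted p = 0.035) and fell by 2.46 in wild type tongues (SE 0.73, limma adjusted p = 0.0119). These calls were lost when any of several libraries was left out, with adjusted p up to 0.13 (without biallelic replicate 1 at P20) and 0.0739 (without wild type replicate 2 at P0).

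The slow chain Myh7 was a chain of the early tongue. At E13.5 it had 12.8, 18.9 and 7.43 RPM in biallelic and 6.27, 22.0 and 8.41 RPM in wild type tongues, 4.51% to 5.73% and 2.29% to 6.06% of the 8 genes. At P0 it had 0.786, 0.704 and 0.665 RPM and 0.373, 0.777 and 0.607 RPM. The stages did not overlap, and Myh7 fell by 4.09 in biallelic (SE 0.45, limma adjusted p = 3.59e-07) and fell by 4.23 in wild type tongues (SE 0.45, limma adjusted p = 2.36e-07). Myh7 reached 1 RPM at E13.5 alone and passed the low-value filter through that stage, so a fall from E13.5 was built into its selection. At P20 it was at 0.105, 0.106 and 0.113 RPM and 0.0436, 0.0515 and 0.0882 RPM, from 2 to 6 reads per library, a further fall with log2 changes of -2.73 (SE 0.45, limma adjusted p = 0.000143) and -3.27 (SE 0.45, limma adjusted p = 3.08e-05) that did not pass with 1 added to each RPM (limma adjusted p = 0.107 and 0.144) or with voom (limma adjusted p = 0.102 and 0.0966). Since Myh7 is also a heart gene, 10 heart muscle markers were read beside it: they summed to 45.6 to 158.5 RPM in biallelic and 85.001 to 148 RPM in wild type tongues at E13.5. There Nppa, the atrial peptide, was at 0 reads in all 6 libraries and Nppb in 5. The atrial light chain Myl7 had reads in 4 libraries (at most 0.543 RPM in biallelic and 0.134 RPM in wild type tongues), and the factors Gata4 (at most 0.229 and 0.127 RPM) and Tbx5 (at most 0.0814 and 0.423 RPM) in 5 each, while Nkx2-5 averaged 3.87 and 3.55 RPM. The remaining heart markers were Tnni3, Tnnt2, Myl4 and Sln. These are also among the slow or the embryonic and fetal muscle partners below, so the marker sum does not measure heart tissue alone. At P0, with Myh7 lower, that sum was 271 to 322 and 251 to 327 RPM, and the part of heart genes in the Myh7 values was not tested. The cardiac chain Myh6 stayed under 1 RPM in all 18 libraries, with a highest value of 0.782 RPM in wild type replicate 2 at E13.5, and 0 reads in 2 biallelic and 1 wild type libraries at P20. Slow and cardiac chains together held 5.50% ± 0.47 and 4.47% ± 1.92 of the 8 genes at E13.5 but 0.0027% ± 0.0006 and 0.0021% ± 0.0004 at P20.

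**Figure D3:**
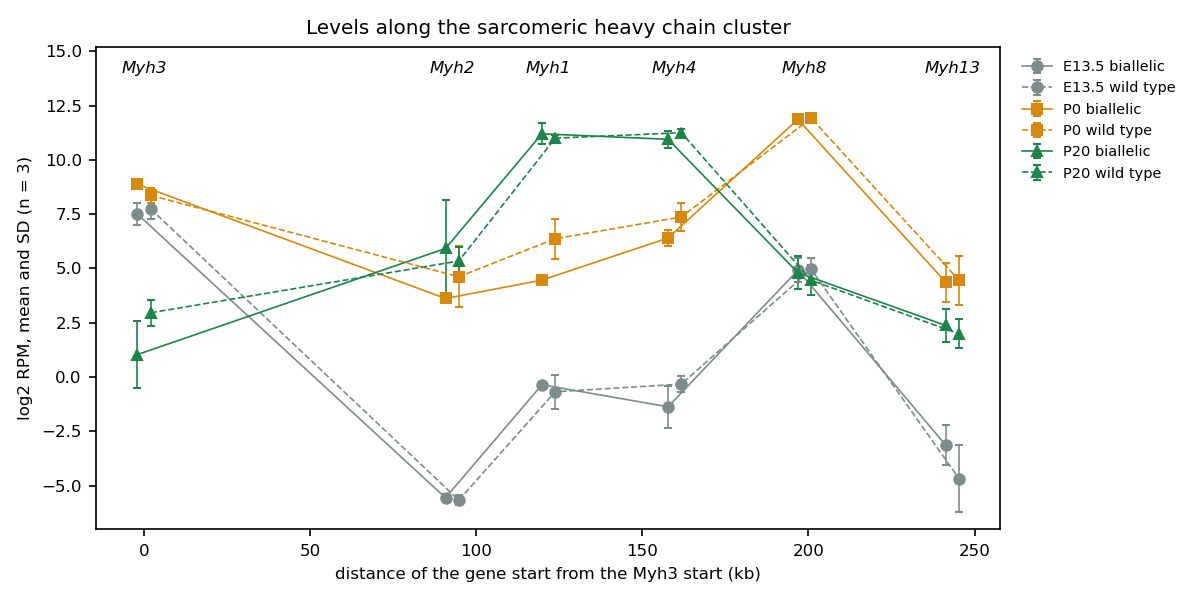
Mean log2 RPM with SD (n = 3) of the 6 clustered genes, placed by the distance of each gene start from the Myh3 start in kb, at each stage in biallelic (solid) and wild type (dashed) tongues drawn slightly apart; the transcripts differ little in length (6016 to 6149 bases). The highest point is Myh3 at the left end at E13.5, Myh8 at P0, and Myh1 and Myh4 in the middle at P20.

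The minus strand of the cluster carries 3 annotated non-coding genes. Gm12300, which GENCODE lists as Myhas, overlaps Myh1, and had 0.0347 and 0.0554 RPM at E13.5, 0.395 ± 0.055 and 0.616 ± 0.046 RPM at P0 and 18.8 ± 5.5 and 18.6 ± 0.62 RPM at P20 in biallelic and wild type tongues. At P0 its 3 biallelic libraries lay below its 3 wild type libraries, as those of Myh1 did. The transcript 2310065F04Rik, between Myh3 and Myh2, had 1.43 ± 0.25 and 2.24 ± 0.80 RPM at P0 and 7.601 ± 2.055 and 9.81 ± 1.73 RPM at P20. The third, 9430073C21Rik, overlaps the end of Myh2 and reached 0.774 and 0.979 RPM at P20. The libraries keep strand, but reads were counted with a strand setting not given in the sources used here. Reads of a heavy chain gene and of its antisense partner may therefore not be separated.

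The genotype comparison asks whether a second active Plagl1 allele shifts this programme. At E13.5, 0 of 11869 genes passed the limma test (0%, 386 at an unadjusted p under 0.05), at P0 2 of 12489 (0.016%) and at P20 0 of 12693 (0%, 286 at an unadjusted p under 0.05), and voom on whole reads called 0 at all 3 stages. No member passed at any stage, with 3 members tested at E13.5 and 6 at P0 and at P20. At E13.5 none of the 3 tested members had groups that did not overlap, against 10.1% of all genes (2.43% higher and 7.69% lower in biallelic tongues). There the biallelic minus wild type difference was -0.24 for Myh3 (95% interval -0.86 to 0.38), -0.04 for Myh8 (-0.72 to 0.64) and 0.21 for Myh7 (-0.78 to 1.20).

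At P0 the genotypes differed most, among the members, in minor chains. Myh1 was at 21.5 to 23.2 RPM in biallelic and 39.6 to 131 RPM in wild type tongues, a log2 difference of -1.91 (SE 0.40, interval -2.83 to -0.98, unadjusted p = 0.00156 and adjusted p = 1 by limma), lower in 3 of 3 biallelic libraries than in every wild type library. Myh4 was at 62.6 to 99.3 RPM in biallelic and 101 to 220 RPM in wild type tongues, a difference of -0.97 (SE 0.31, interval -1.70 to -0.24, unadjusted limma p = 0.016). The embryonic chain Myh3 went the other way, at 427 to 511 RPM in biallelic and 255 to 391 RPM in wild type tongues, a difference of 0.51 (SE 0.17, interval 0.12 to 0.90, unadjusted limma p = 0.0171). Those 3 of the 6 tested members had groups that did not overlap, which held for 8.9% of all 12489 genes (5.83% higher and 3.07% lower in biallelic tongues). The exact permutation test gave p = 0.1 for each, which is the smallest that 3 against 3 libraries can give. Myh8 itself differed by -0.06 (SE 0.11, interval -0.31 to 0.20), Myh13 by -0.09 (interval -1.51 to 1.33) and Myh2 by -1.003 (SE 0.60, interval -2.40 to 0.40).

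**Figure D4:**
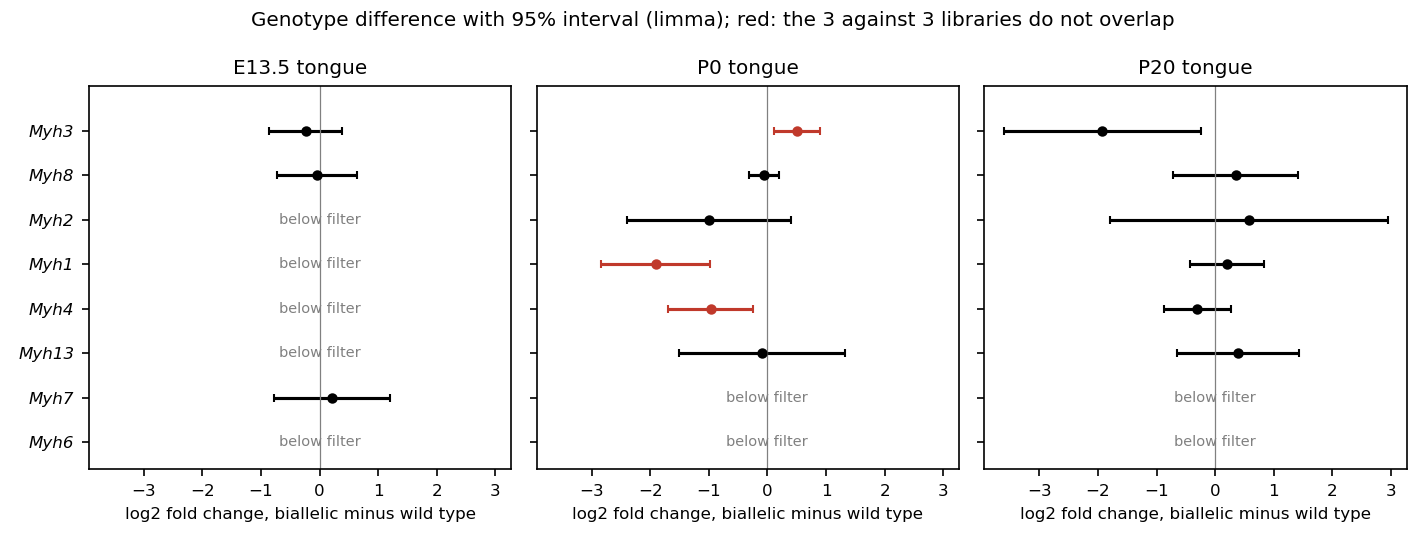
Log2 fold change of biallelic minus wild type tongues for each member at each stage with its 95% interval from limma; red marks members whose 3 biallelic and 3 wild type libraries do not overlap, and members below the low-value filter carry no point. Myh1 and Myh4 lie left of 0 and Myh3 right of 0 at P0, and no adjusted p is under 0.05.

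Wild type replicate 3 sat between the groups at P0. It had 39.6 RPM of Myh1, 7.95 RPM of Myh2 and 101 RPM of Myh4, against 109 and 131, 40.6 and 46.2, and 205 and 220 RPM in the other wild type libraries, and its Myh2 was below all biallelic libraries. The adult fast chains made up 2.36% to 3.07% of the 8 genes in the biallelic libraries, 3.64% in wild type replicate 3, and 7.54% and 8.48% in the other wild type libraries (shares of Myh1, Myh2 and Myh4 together). Without that library Myh1 passed at -2.44 (limma adjusted p = 0.00342) and Myh2 at -1.82 (limma adjusted p = 0.026), among 4 called genes. The library was picked out by its values of these same genes, so leaving it out had to widen these differences. With all libraries no member passed. Of the 10 skeletal muscle markers 9 had a lower mean in biallelic tongues at P0, and none passed (median -0.17 beside 0.04 for all genes), against 5 of the 9 tested at E13.5 and 7 of 10 at P20. Scaling each library to 5 muscle genes left Myh1 at -1.83, Myh4 at -0.89 and Myh3 at 0.59. Without biallelic replicate 1 and wild type replicate 2 the values were -1.69, -0.87 and 0.51.

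At P20 Myh1 (0.20, interval -0.43 to 0.84), Myh4 (-0.31, interval -0.88 to 0.27), Myh8 (0.35, interval -0.72 to 1.42), Myh13 (0.39, interval -0.66 to 1.43) and Myh2 (0.58, interval -1.79 to 2.94) had intervals that included 0. None of the 6 tested members had groups that did not overlap, against 6.89% of all genes (3.14% higher and 3.74% lower in biallelic tongues). Myh3, by then a remnant, was at 0.647, 2.58 and 5.19 RPM in biallelic and 5.18, 7.78 and 11.7 RPM in wild type tongues, a difference of -1.92 (SE 0.72, interval -3.61 to -0.24, unadjusted p = 0.0305, adjusted p = 1 by limma) with ranges that overlapped narrowly. Biallelic replicate 3 stood out, with 304 RPM of Myh2, 3439 RPM of Myh1 and 51.8 RPM of Myh8, each the highest of the 6 P20 libraries, and 1469 RPM of Myh4, the lowest. Its skeletal marker sum of 33652 RPM was also the highest of the 6. Without it the differences were -0.59 for Myh2, -0.07 for Myh1 and -0.09 for Myh8.

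The change with stage was also compared between genotypes in 1 fit of all 18 libraries, and 0 of 13663 genes passed limma in either interval (0%), with 766 up to birth and 185 after birth at an unadjusted p under 0.05, and voom on whole reads also called 0. Myh1 had the smallest interaction p of the members: its change up to birth differed by -2.23 on the log2 scale, biallelic minus wild type (interval -3.38 to -1.08, unadjusted p = 0.000799, adjusted p = 0.597 by limma), and its change after birth by 2.11 (interval 0.96 to 3.26, unadjusted p = 0.00129, adjusted p = 1 by limma). Both share the P0 libraries. At E13.5, where Myh1 differed by 0.32 on 15 to 60 reads per library, it was below the low-value filter. The postnatal change of Myh3 differed by -2.43 (interval -3.99 to -0.87, unadjusted p = 0.00439, adjusted p = 1 by limma). Averaged over the 3 stages, 3 of 13663 genes passed (0.022%), none of them members. Myh4 had an average difference of -0.77 (SE 0.22, unadjusted p = 0.00312, adjusted p = 1 by limma), with -1.04, -0.97 and -0.31 at E13.5, P0 and P20, where its E13.5 value is below the low-value filter. Its exact permutation p within stages was 0.0075 (two-sided, 9 against 9 libraries), in a family of 8 such tests of which the other 7 gave 0.0875 (Myh7) to 0.871 (Myh2). Myh7 at P20, on 2 to 6 reads, was the other case without overlap (0.105 to 0.113 RPM in biallelic and 0.0436 to 0.0882 RPM in wild type tongues).

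The partners of the heavy chains in the sarcomere were followed as lists. A change given for 1 genotype alone marks a gene among the 2 largest there, not a difference between genotypes. From E13.5 to P0 all 12 of 12 fast fibre partners rose in each genotype, with a median of 5.24 in biallelic and 5.15 in wild type tongues beside 0.05 and -0.04 for all genes tested. Of all genes, 39.7% and 37.9% rose in this step. Both largest rises started from few or 0 reads, so their fitted sizes are not given. Mybpc2, the fast myosin binding protein C, averaged 0.0438 RPM in biallelic and 0.0268 RPM in wild type tongues at E13.5, under the level of 3 reads per library, and 40.2 and 74.9 RPM at P0. Pvalb, the calcium buffer parvalbumin, averaged 0.0715 RPM at E13.5 and 13.1 RPM at P0 in biallelic tongues. In wild type tongues Pvalb had 0 reads in all E13.5 libraries, so that its P0 mean of 34.9 RPM was at least 528-fold higher than 3 reads per library, and the list median was 5.15 also with Pvalb at that bound. After birth 1 of 12 rose and 5 fell in each genotype: Atp2a1, the fast calcium pump, rose by 1.10 and 0.87, and Actn3, the fast fibre actinin, and Mybpc2 fell, with log2 changes of -2.49 and -3.35 for Actn3 and -2.56 and -2.82 for Mybpc2. The 6 called partners are 50% of the list, near the 47.2% and 46.6% of all genes called in this step.

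The slow fibre and cardiac partners divided. Of 10 tested, 5 rose and 5 fell up to birth in each genotype, with a median of 0.06 in biallelic and -0.08 in wild type tongues. That is 100% called, beside 77.2% and 77.8% of all genes. After birth 70% of the list was called in each genotype, beside 47.2% and 46.6% of all genes. Mybpc1, the slow myosin binding protein C, rose by 6.31 and 6.42, and Sln, a small inhibitor of the calcium pump, by 3.72 and 3.56. Tnnc1, the slow and cardiac troponin C, fell (log2 -2.55 and -3.36), and Myh7b, a slow-type heavy chain, fell (-2.92 and -3.39). Like Myh7, Myh7b passed the low-value filter through E13.5 alone, so its fall was built into its selection. After birth 6 fell and 1 rose in each genotype, with a median of -1.44 and -1.04 beside 0.18 and 0.22 for all genes: Tnnc1 fell further (-6.35 and -5.86, with P20 means of 0.11 and 0.1 RPM, a few reads per library), Tnni1, slow troponin I, fell (-5.53 and -5.11), and Tpm3 rose by 0.50 and 0.41.

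The embryonic and fetal partners followed Myh3 after birth: 8 of 8 fell in each genotype, with a median log2 change of -3.10 in biallelic and -2.76 in wild type tongues. Of all genes, 17.3% and 14.9% fell in this step. Chrng, the fetal subunit of the acetylcholine receptor, fell (-7.22 and -6.20, to P20 means of 0.0864 and 0.0984 RPM, a few reads per library). So did Actc1, the cardiac actin that early skeletal muscle also carries (-5.94 in biallelic tongues), and Myl4, the embryonic light chain (-4.51 and -4.58). Up to birth 5 rose and 1 fell in biallelic and 2 rose and 1 fell in wild type tongues. That is 75% and 37.5% called, beside 77.2% and 77.8% of all genes. Ncam1, an adhesion protein of young fibres, rose by 2.02 and 1.64, Chrnd by 1.99 and 1.34, and Tnni3, cardiac troponin I, fell (-0.93 and -1.13). Tnni3 passed the low-value filter through E13.5 and was below it at P0. Its fall up to birth was thus built into its selection, and its fall after birth began from a low level. The medians were 1.44 and 0.68.

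Among 25 regulators of myosin genes, 18 rose and 4 fell up to birth in each genotype (88% called, beside 77.2% and 77.8% of all genes; median 1.785 and 1.499). Myf6, a myogenic factor of differentiated fibres, rose by 6.02 and 6.11 and Nfatc2, a calcineurin-controlled factor, by 5.45 and 5.08. Myod1, a factor of muscle commitment, fell (-1.36 and -1.67), as did Six4 (-0.85 in biallelic tongues) and Myog (-1.34 in wild type tongues). After birth 7 rose and 7 fell in each genotype (56% called, beside 47.2% and 46.6% of all genes): Myog, which drives fusion and early differentiation, fell further (-2.93 and -2.65), as did Myf5 (-1.33 in biallelic) and Vgll2, a partner of the Tead factors (-2.25 in wild type tongues). Ppargc1a, a coactivator of mitochondrial genes, and Nfatc1 rose by 1.70 and 1.11 in biallelic tongues, and Nfix, which in mouse drives the fetal programme, and Rcan1, a calcineurin inhibitor, by 0.97 and 0.82 in wild type tongues. These were the 2 largest called rises of each genotype, and no gene passed the genotype by stage test.

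Of 10 chaperones and sarcomere assembly genes, 8 rose and 1 fell up to birth in each genotype (90% called, beside 77.2% and 77.8% of all genes). Myom2, an M-band protein, rose by 4.80 and 4.50, Trim54 by 4.91 in biallelic and Myom1 by 4.26 in wild type tongues, while Hsp90aa1, a chaperone of myosin folding, fell (-2.08 and -2.03). After birth 2 rose and 1 fell in each genotype (30% called, below the 47.2% and 46.6% of all genes): Trim63, a ubiquitin ligase of thick filament proteins, rose by 1.89 and 1.51, with Myom1 (0.53, biallelic) and Myom3 (0.56, wild type), and Myom2 fell (-1.19 and -1.61). Of the non-sarcomeric and smooth muscle heavy chains, Myh11, of smooth muscle, rose at both steps (4.68 and 5.13, then 2.26 and 1.78), as did Myh14 (2.53 and 2.96, then 1.63 and 1.52), while Myh10, a non-muscle chain, fell (-0.93 and -0.81, then -1.25 and -1.37). In the genotype comparisons no gene of these 6 lists passed at any stage. Of the fast fibre partners, 8 of the 9 tested had a lower mean in biallelic tongues at E13.5 (median -0.31 beside -0.06 for all genes tested), 12 of 12 at P0 (-0.26 beside 0.04) and 10 of 12 at P20 (-0.07 beside -0.02). The E13.5 lean was not particular to fast partners. There 9 of 10 slow and cardiac partners (median -0.28) and 8 of 8 embryonic and fetal partners (-0.26) were lower too. At P0 4 of 9 and 1 of 7 of these were lower, and at P20 1 of 8 and 3 of 5. In the remaining lists at P0, 4 of 4 non-sarcomeric and smooth muscle heavy chains, 7 of 10 chaperones and assembly genes and 8 of 25 regulators were lower. Of the skeletal muscle markers, which share Tnnc2 and Mylpf with the fast partners, 9 of 10 were lower.

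**Figure D5:**
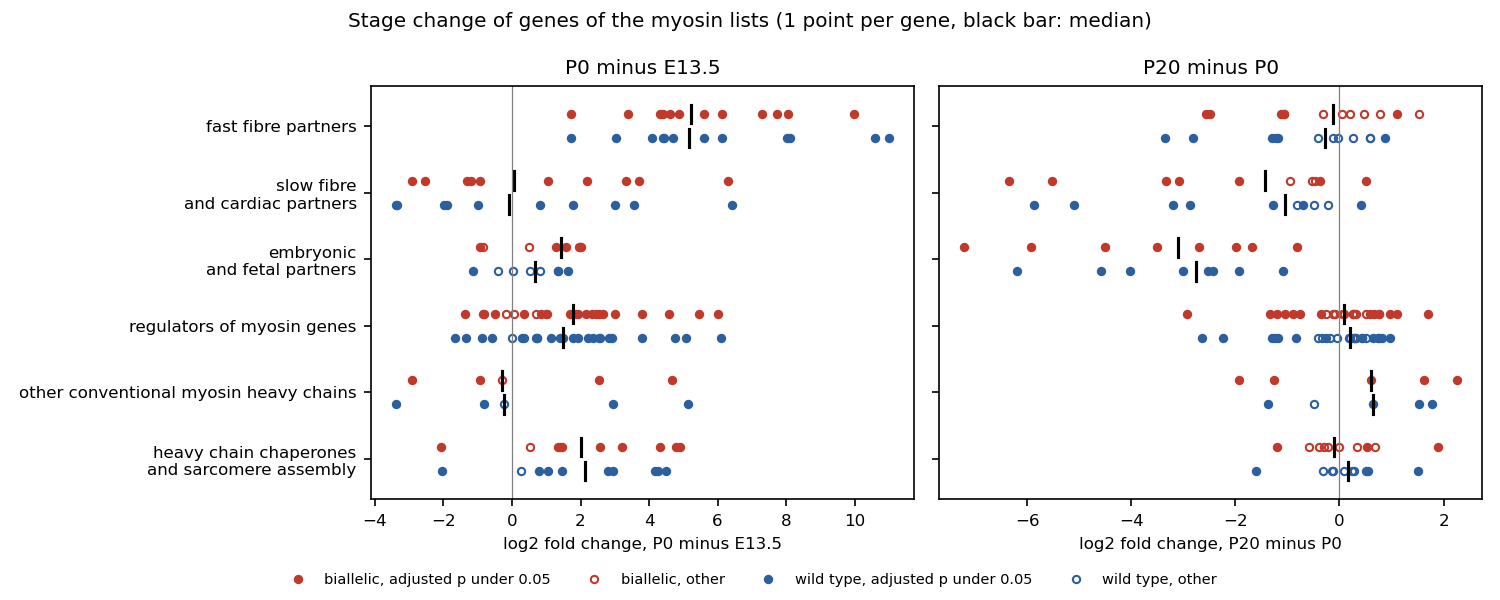
Log2 fold change between stages for every tested gene of the 6 lists, up to birth (left) and after birth (right), biallelic in red above wild type in blue; filled points have an adjusted p under 0.05 black bars are list medians, and Mybpc2 and Pvalb, with few or 0 reads at E13.5, are drawn at their fitted values. Fast partners lie to the right of 0 up to birth, and embryonic and fetal partners to the left of 0 after it.

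Which genes ran most like each member was read from Pearson correlations of log2 RPM over the 18 tongue libraries, among 13656 genes. These follow the stages that all libraries share and are a description. Closest to Myh3 were Chrng (r = 0.983), Gjd4 (0.978) and Frem1 (0.967), and to Myh8 Ryr3 (0.992), Tm6sf1 (0.983) and Meg3 (0.98). Closest to Myh4 were Mbnl1, a splicing factor (0.995), Chrne, the adult subunit of the acetylcholine receptor (0.993), and Aldh3a1 (0.993), and to Myh1 Slc41a3 (0.991), Ogdh (0.99) and Klhl33 (0.99). Myh2 ran with Smtnl1, Rasgrp3 and Eef1a2 (0.987 each), Myh13 with Pxn (0.977), AI464131 (0.977) and Wbscr17 (0.974), and Myh7 with Ddx47 (0.986), Ypel1 (0.985) and Gas2 (0.984). Myh3 and Myh4 thus paired with the fetal and the adult receptor subunit.

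Taking away the 6 group means leaves the differences between libraries of 1 group, over the same 18 libraries. Closest to Myh3 were Slc6a13 (0.921), Hoxa2 (0.879) and Chrng (0.865), and Myh1 was closest to Mb, myoglobin (0.819), Myot (0.805) and Qprt (0.802). Myh8 was closest to Gamt (0.935), Ehbp1l1 (0.912) and Suclg1 (0.899), Myh2 to Shisa2 (0.871), E2f6 (0.867) and Acads (0.865), and Myh4 to Tuba4a (0.922), Syf2 (0.864) and Arl6ip4 (0.859). Myh13 was closest to Fitm1 (0.859), Timp4 (0.832) and 9330159F19Rik (0.82), and Myh7 to Gm10705 (0.93), Crem (0.916) and Vps13d (0.864). Among the members themselves Myh1 and Myh4 correlated at 0.975 over the 18 libraries but at 0.061 within groups, whereas Myh1 and Myh2 gave 0.916 and 0.618. Myh1 and Myh2 share 19.7% of their 50-base words, and the part of stray reads in their correlation was not tested. The named genes are the highest of 13656, so a high correlation is in part a product of the search. Some differences rest on few reads: Myh2 had 0 reads in every E13.5 library, where its value follows the read total alone. Myh7 had 2 to 6 reads per library at P20, and Chrng a few. Depth, animal and preparation are shared by all genes of a library, so these correlations describe libraries.

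In the sorted E18.5 cells the heavy chains were near 0. No member reached 1 RPM in at least 5 of the 11 animals, and the 8 genes summed to a mean of 1.82 RPM in biallelic and 1.26 RPM in wild type animals, far below the sums of the tongues. The highest counts were 22 reads of Myh3 in biallelic animal 3 and 16 reads of Myh7 in wild type animal 10. Of the 11127 genes tested there, 0 passed the genotype test in limma (0%), with 1298 at an unadjusted p under 0.05, and voom on whole reads also called 0. Wild type animals 7, 8 and 9 lay apart from the other 8 animals on the first principal component of this table (scores of 64.3, 79.8 and 89.8, against -52.2 to 17.2), and leaving out any 1 of them also gave 0 calls. These libraries carried the cartilage genes Col2a1 (527 ± 170 RPM in biallelic and 289 ± 103 RPM in wild type animals) and Col9a1, with Ihh at 0 in 9 of the 11 and Col10a1 at 0 in 3. Skeletal muscle markers summed to 16.8 to 52.3 RPM and 30.4 to 77.6 RPM. The leukocyte markers Lyz2, Ptprc, Itgam and others summed to 2068 to 3117 RPM in biallelic and 2476 to 2997 RPM in wild type animals, above the chondrocyte markers (305 to 879 and 178 to 522 RPM) in every library, and their part in the contrast was not tested.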

How the data were processed

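The authors deposited log2 RPM per gene in 4 tables, each library scaled to its own read total. A gene with 0 reads holds the value of 0.9 reads, and 100% of low values came out as whole reads within 0.05 of a read. Reads went through TopHat2 2.1.0 (tongues) or HISAT2 (chondrocytes) on GRCm38 after Trim Galore 0.4.2, per the submitters' processing notes, with a read counter not given in the sources used here. Tongue libraries were depleted of ribosomal RNA and strand-specific and chondrocyte libraries SMART-seq2, per the labels' protocols. For 4 biallelic chondrocyte animals the labels list 2 libraries but the table holds 1 column, and each counted once, so that 33 labelled samples gave 29 columns.

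Genes that reached 1 RPM in 3 of 6 libraries (3 of 18 for stages, 5 of 11 for chondrocytes) entered limma 3.58.1 under R 4.3.3, with a mean-variance trend and Benjamini-Hochberg adjustment at 0.05. Intervals are 95% intervals of that fit. Stage and interaction contrasts come from 1 fit of all 6 tongue groups. Shares use RPM per kb of the longest GENCODE transcript. Hdac4 has 2 rows, of which the first was used.

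The members, lists and rules were chosen with earlier results of these data known. All members are named everywhere. From each list the text names genes called between genotypes and, between stages, the 2 called genes with the largest rise and fall, and by likeness the 3 genes with the highest correlation.

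Alternatives were 1 added to RPM, median, quantile and muscle-gene centring, no filter or 5 RPM, no trend, voom, the replicate block and each library left out, and, added after seeing the data, 4 libraries left out together. Floors of 3 reads cover counting error only.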

Additional observations from a re-analysis of the deposited data

Results flagged for a closer look

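Among the sorted E18.5 cells, 7 sets of values held 1 value far above the others of its group, out of 13 such sets of members tested, where chance alone flags about 1 set in 20; most sets hold mainly zeros, in which any single read stands out. In biallelic animals these were Myh13 at 0.066 RPM in animal 1 (the others at 0), Myh3 at 1.553 RPM in animal 3 (next 0.416), Myh4 at 0.255 RPM in animal 2 (next 0.071) and Myh6 at 0.138 RPM in animal 5 (the others at 0). In wild type animals they were Myh2 at 0.638 RPM in animal 7 (next 0.127), Myh3 at 0.888 RPM in animal 10 and Myh7 at 2.029 RPM in animal 10 (the others at 0). Each value stands for 1 to 22 reads, and the tongue groups, with 3 libraries each, are too small for this rule.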

How the results depend on the processing

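Over the single members, 1483 alternative values kept direction and side of the threshold, 56 reversed, 22 lost and 2 gained a call; among counts and shares 510 kept within their limits and 30 moved. In the P0 genotype comparison Myh1, Myh2, Myh3 and Myh4 kept their direction under each alternative run. Depth limits Myh1, Myh2, Myh4, Myh6 and Myh13 at E13.5, Myh6 and Myh7 at P20 and all members in chondrocytes, where few reads stand behind a value. The cause of the changes below was not tested.

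The 2 genes called at P0 became 1 with median centring, quantile normalization or no filter, 0 without the trend, with voom, with muscle-gene centring or with the 4 far-out libraries left out (an alternative added after seeing the data), and 0 to 4 when each library was left out in turn, with 0 to 2 members called. Without a filter on low values, 19861 genes were called from E13.5 to P0 in biallelic and 20373 in wild type tongues and 15070 from P0 to P20 in wild type tongues, more genes being tested. Genes called for the genotype by stage difference up to birth went to 4 without the far-out libraries and 0 to 8 leaving out each library; after birth to 2, to 1 with median centring and 0 to 1. Genes called for the averaged genotype effect numbered 5 without the trend and 3 to 9 leaving out each library.

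The replicate numbers did not act as pairs at P0 and P20 (correlations of same-numbered libraries lay between -0.486 and 0.362 for P0, -0.647 and -0.288 for P20). At E13.5 same-numbered libraries lay between 0.042 and 0.159, against -0.138 to 0.055 for different numbers, a weak lean toward pairs. With the replicate block 0 genes were called at P0, and the stage comparisons kept 7, 6, 7 and 6 called members.

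Genotype differences reversed at E13.5 for Myh8 with median centring (0.0245), quantile normalization (0.0019) and without the far-out libraries (0.2234), and for Myh3 without them (0.0009). At P0 they reversed for Myh8 with quantile normalization (0.0623), muscle-gene centring (0.0213) and without the far-out libraries (0.0105), and for Myh13 without these (0.3347). At P20, without the far-out library, Myh2 gave -0.587, Myh1 -0.0705 and Myh8 -0.0923. The genotype by stage difference up to birth reversed for Myh4 with 1 added to RPM (-0.6202), median centring (-0.0135), quantile normalization (-0.1785) and without the far-out libraries (-0.3456), for Myh8 with quantile normalization (0.0589), and for Myh7 with 1 added (-0.0639) and without the far-out libraries (-0.045). After birth it reversed for Myh8 without the far-out libraries (-0.1028) and for Myh7 with 1 added (-0.0603) and quantile normalization (-0.2472).

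Leaving out each library in turn, the E13.5 genotype differences ran from -0.5077 to 0.0009 (Myh3), -0.3357 to 0.2708 (Myh8) and -0.161 to 0.7453 (Myh7). At P0 they ran from -0.1156 to 0.0085 (Myh8) and -0.5393 to 0.5509 (Myh13), and at P20 from -0.587 to 1.638 (Myh2), -0.0705 to 0.3958 (Myh1) and -0.0923 to 0.6295 (Myh8). The P20 minus P0 change of Myh2 in wild type tongues ran from -0.0914 to 1.178. The genotype by stage differences ran from -0.4472 to 0.5095 (Myh4), -0.3278 to 0.2786 (Myh8) and -0.3913 to 0.515 (Myh7) up to birth, and from -0.0353 to 0.6866 (Myh8) and -0.1633 to 0.9268 (Myh13) after it. The averaged genotype effects ran from -0.494 to 0.2476 (Myh2) and -0.0629 to 0.188 (Myh8).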
